A study of Arabidopsis thaliana with 4 samples.

Results

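Long non-coding RNA (lncRNA) genes with replicated peaks of the strigolactone repressor SMXL6 are described here. They are the nuclear genes of type lncRNA in the RefSeq gene table of Arabidopsis thaliana with a peak at a gene end in both deposited lists. There were 241 of them among 3480 lncRNA genes, and 3239 lncRNA genes were unbound by this definition. The window at each end ran from 1000 bp outside to 200 bp inside the gene, and an overlap of 1 bp with a peak was enough. The members were thus selected on the peak calls of both lists, and every count of peaks at them is a description without a test.

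The data were chromatin immunoprecipitation and sequencing (ChIP-seq) with a polyclonal anti-HA antibody on whole seedlings aged 2 weeks. The SMXL6-HA plants were smxl6/7/8 triple mutants carrying SMXL6 tagged with HA and driven by the SMXL6 promoter (2 libraries). The control plants were the same smxl6/7/8 mutant without the transgene (2 libraries), so both groups carried the smxl6, smxl7 and smxl8 mutations. The authors called SMXL6-HA replicate 1 against control replicate 1 (list 1) and SMXL6-HA replicate 2 against control replicate 2 (list 2). The labels do not say whether replicates came from separate plant cultures or how many transgenic lines were used. The 1789 peaks of list 1 were wider (median 2824 bp) than the 1442 of list 2 (median 1236 bp). Read depth is unknown, and a weak site in all cells and a strong site in few cells of the seedling cannot be told apart. The score of a peak is the authors' own value, in a column without a name or stated scale. It is assumed here that a higher score is a stronger call, and all ranks, taken within 1 list, rest on that assumption.

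SMXL6, SMXL7 and SMXL8 are repressors that are degraded when strigolactone, a hormone that holds back shoot branching, is perceived. SMXL proteins recruit TOPLESS corepressors, and SMXL6 has been described as binding DNA directly. Long non-coding RNAs are transcripts without a long open reading frame. Some plant lncRNAs act on a neighbouring gene in cis, and others have no known function. None of the deposited files measures RNA, so whether these genes were transcribed in the seedlings was not measured. All 3480 lncRNA genes carry only a locus code in the table, without a symbol.

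The share of lncRNA genes with peaks in both lists was 6.93%, against 5.04% of 27444 protein-coding genes and 4.56% of all 37899 nuclear genes. In list 1 alone 480 lncRNA genes (13.8%) had a peak, and in list 2 alone 302 (8.68%). Of the lncRNA genes in list 2, 79.8% were also in list 1, and of those in list 1, 50.2% were also in list 2. Of protein-coding genes 11.3% had a peak in list 1 and 6.68% in list 2, and the corresponding shares found in the other list were 75.5% and 44.8%. A further 239 lncRNA genes had a peak in list 1 only and 61 in list 2 only, while 2939 had none in either. The windows spanned 2200 to 2400 bp per lncRNA gene, so they differed little in length between genes. Bound lncRNA genes had a median length of 362 bp and unbound ones 341 bp. The share bound was 6.33% at 200 to 300 bp, 7.22% at 301 to 500 bp, 6.62% at 501 to 1000 bp and 8.86% for longer genes. On chromosomes 1 to 5 it was 5.71%, 6.90%, 6.44%, 7.21% and 8.93%. In pericentromeres, taken as 2000000 bp on either side of an approximate centromere position, lay 0 of the 241 bound and 280 of the 3239 unbound lncRNA genes. Nearly all bound protein-coding genes, 1372 of 1384, also lay outside pericentromeres, so this is not particular to lncRNA genes. Outside pericentromeres 7.53% of 3200 lncRNA genes and 5.25% of 26125 protein-coding genes were bound.

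At the limit of the rule, AT5G09765 was just inside, with peaks 998 bp away in list 1 and 963 bp away in list 2. AT5G09055 had a list 1 peak over it and a list 2 peak 983 bp away. AT5G08735, near COL5, was just outside, with peaks 847 bp and 1075 bp away, and AT2G08265 had peaks 1077 bp and 698 bp away. In 232 of the 241 members the highest peaks of the lists overlapped each other, and in 9 they did not. With any peaks at the gene in place of the highest, 238 members had an overlapping pair. Among the 9 was AT5G03935, named here after its values were seen. Its highest list 1 peak, of 2 in its windows, scored 878.19 and lay 823 bp away. Its list 2 peak, of score 81.94, lay over the gene.

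Neighbouring members often shared a peak. The 241 members had 199 different highest peaks in list 1 and 203 in list 2. In list 2, 32 peaks were the highest peak of 2 or more members, and these took in 70 members. Of the 1077 list 2 peaks that overlapped a list 1 peak, 200 (18.6%) were the highest peak of a member. At 126 of these 1077 peaks (11.7%) the nearest gene end of any gene type belonged to a lncRNA gene, while lncRNA genes make up 9.18% of nuclear genes. At 910 (84.5%) it belonged to a protein-coding gene. Protein-coding genes, 27444 of the 37899 nuclear genes, thus also held more of these ends than their share of genes. The share for lncRNA genes was 12.2% in the highest 25% of these peaks by score and 11.5% in the lowest 25%, so it differed little between high and low scores.

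**Figure D1:**
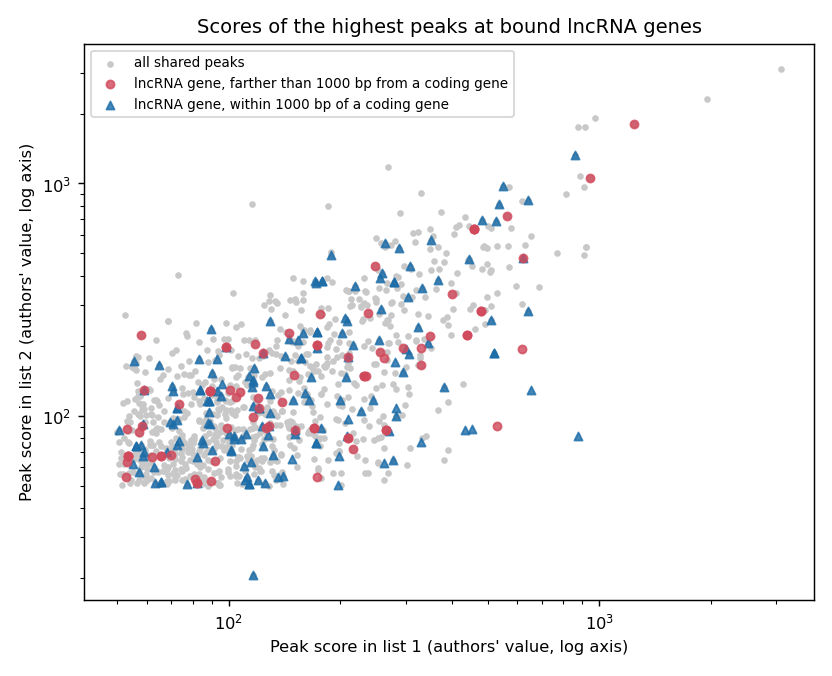
Peak score in list 1 (horizontal, log axis) against list 2 (vertical, log axis), both the authors' values. Circles and triangles are bound lncRNA genes at their highest peaks, and grey points are the 982 list 1 peaks that overlap a list 2 peak, set against the highest list 2 peak they overlap. Bound lncRNA genes reach 1239.49 and 1800.11, and the grey points go on to 3100 in both lists.

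Scores at members ran from the low end of the shared peaks upward and stopped well short of the highest shared peaks. In list 1 the median of the highest peak was 140 at members, from 50.45 to 1239.49, against 122 over all 982 shared peaks, from 50.01 to 3100. In list 2 it was 122 at members, from 20.72 to 1800.11, against 106 over all 1077, from 20.72 to 3100. Among the 100 highest peaks by rank were those of 35 members (14.5%) in list 1 and 30 (12.4%) in list 2. In both lists 17 members (7.05%) reached that rank. Scores of at least 100 in both lists were found at 113 members (46.9%). The same counts were not made for bound coding genes, so these shares have no background and nothing is read from them. Where several members share a peak, each counts with the same score, and a member with several peaks is taken at its highest.

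Of the 241 members, 164 lay within 1000 bp of a protein-coding gene and 77 lay farther from one. Among all lncRNA genes 77 of the 822 far ones (9.37%) and 164 of the 2658 near ones (6.17%) were bound. The order turned with the limit. With 2000 bp in place of 1000 bp, 5.66% of far and 7.09% of near lncRNA genes were bound. By distance, the share was 5.28% for lncRNA genes that overlap a coding gene, 5.74% at 1 to 500 bp, 9.18% at 501 to 1000 bp and 12.7% at 1001 to 2000 bp. It was 7.41% at 2001 to 5000 bp and 1.68% (2 of 119) beyond. Outside pericentromeres the shares were 5.47%, 6.14%, 9.76%, 14.1%, 8.73% and 4.08% in the same order of distance. The median distance to the nearest coding gene was 528 bp for bound lncRNA genes and 218 bp for unbound ones. Of the bound ones 31.1% overlapped a coding gene, and of the unbound ones 41.6%. Among lncRNA genes lying wholly inside a coding gene, 36 of 902 (3.99%) were bound.

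**Figure D2:**
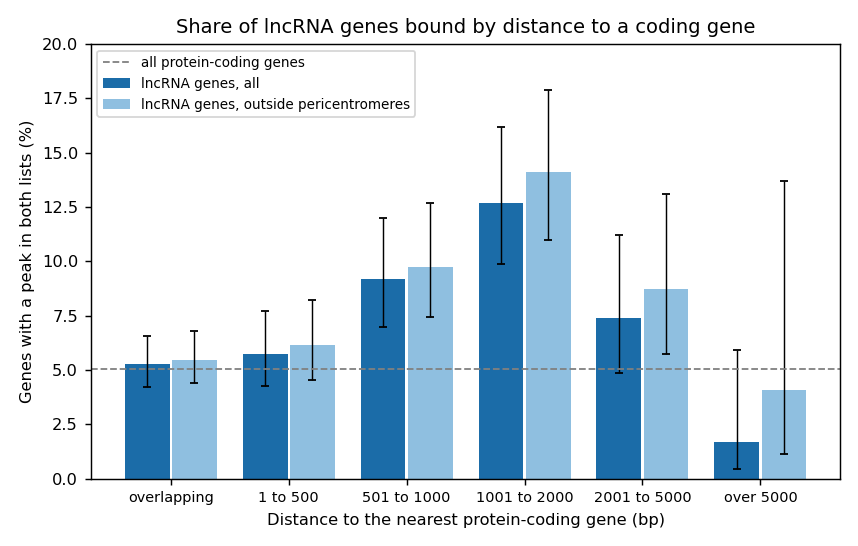
Share of lncRNA genes with a peak in both lists (vertical, percent) by distance to the nearest protein-coding gene (horizontal, bp), for all lncRNA genes and for those outside pericentromeres. Error bars are 95% Wilson intervals, which cover counting error only and treat genes as independent although neighbours share peaks. The dashed line is the 5.04% of protein-coding genes, and the share is highest, at 12.7% and 14.1%, between 1001 and 2000 bp.

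Most near members shared their binding with a coding gene. A protein-coding gene within 1000 bp was itself bound at 157 of the 164 near members (95.7%), against 73 of 2494 unbound near lncRNA genes (2.93%). Their windows overlap those of the coding gene, so the calls are not independent. Read the other way, 157 of 230 lncRNA genes (68.3%) within 1000 bp of a bound coding gene were bound. Of the lncRNA genes with only unbound coding genes within 1000 bp, 7 of 2428 (0.288%) were bound. Those 7 were AT4G09915, AT4G08515, AT5G07355, AT1G05987, AT2G09715, AT5G40348 and AT1G09773, named after their values were seen. Coding genes with a lncRNA gene within 1000 bp were bound in 6.94% of cases (261 of 3763), and those without one in 4.74% (1123 of 23681). At the 77 far members the nearest coding gene was bound at 49 (63.6%) and not bound at 28. Of the 745 unbound far lncRNA genes, 26 (3.49%) had a bound nearest coding gene. A wide peak can reach both genes, so these calls are not independent either.

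Positions within the peaks separated the members further. List 2, with its narrower peaks, placed the midpoint inside the lncRNA gene at 71 members (29.5%), at lower coordinates at 84 and at higher coordinates at 86. Among bound coding genes the midpoint lay inside the gene at 350 of 1384 (25.3%). Strand was not used here, so upstream and downstream were not told apart. The member's own end was the nearest gene end to the list 2 midpoint at 112 members (46.5%), against 765 of 1384 bound coding genes (55.3%). With the wider list 1 peaks it was the nearest at 84 members (34.9%). Near members had the nearest end in 73 of 164 cases (44.5%) and far members in 39 of 77 (50.6%). In both lists at once the member had the nearest end at 33 near and 27 far members. The gene lay wholly inside the highest peaks of both lists at 106 members (44.0%).

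**Figure D3:**
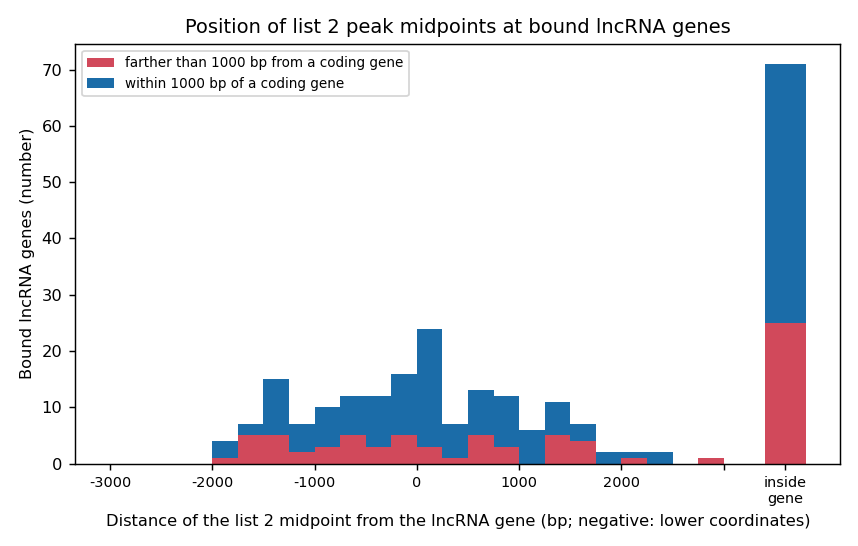
Number of bound lncRNA genes (vertical) by distance of the list 2 peak midpoint from the gene (horizontal, bp, in steps of 250 bp, negative toward lower coordinates), with the 71 genes that hold the midpoint in a bar of their own at the right. Far members (red) and near members (blue) are stacked, and midpoints lie on both sides of the genes, up to 2916 bp away.

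The 2 members with the best mean rank lay far from coding genes. AT1G08673, a gene of 347 bp on chromosome 1, lay under a list 1 peak from 23892954 to 23896600 that scored 1239.49 and ranked 3. Its list 2 peak, from 23894215 to 23896499, scored 1800.11 and ranked 4. Both peaks covered the whole gene, and its end was the nearest gene end to both midpoints, 303 bp away in list 2. The nearest coding gene, AT1G64380, lay 3466 bp away and was itself bound. The list 1 peak reached its window, but this list 2 peak did not, so its list 2 call came from another peak.

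AT3G03705, of 657 bp, lay 1964 bp from BRC1, the TCP factor gene that keeps axillary buds from growing out. On chromosome 3 its list 1 peak ran from 6379829 to 6382025, scored 942.69 and ranked 5. The list 2 peak ran from 6380157 to 6381829, scored 1051.69 and ranked 9. They covered the whole lncRNA gene, the list 2 midpoint lay inside it, and neither peak reached the window of any coding gene. No other peaks made BRC1 bound under this rule, and the lncRNA gene was the nearest annotated gene to the midpoint in both lists. Distance does not say which gene, if either, the site acts on.

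The other 10 of the 12 best-ranked far members came from 7 peaks of each list. AT5G01475 (scores 564.02 and 725.08 in lists 1 and 2) lay 1191 bp from AT5G08139, which was also bound. AT3G09415, AT3G09425 and AT3G09435 sat at 1 peak (458.62 and 636.28), whose list 1 interval ran from 22359571 to 22370618 on chromosome 3. That interval reached the windows of AT3G60510 and AT3G60520, and AT3G09415 had the nearest end to its midpoint. The list 2 interval, 22366273 to 22368002, reached no coding gene window, and AT3G09425 had the nearest end. AT3G60520, the nearest coding gene of all 3, was itself bound. AT2G09320 (399.94 and 333.58) held its list 2 midpoint, and its nearest coding gene AT2G41930 was not bound, although the list 1 peak reached its window. AT1G05863 (248.69 and 441.1) also held the midpoint. AT5G06985 (439.97 and 221.92) lay 1383 bp from HAT2, a homeodomain-leucine zipper gene of the shade response, and had the nearest end in list 2, while HAT2, also bound, had it in list 1. AT3G02805 and AT3G02815 shared a peak (479.37 and 283.66) near APG12B, a bound autophagy gene. The first had the nearest end in list 2 and APG12B in list 1. AT3G02615 (622.09 and 479.9) shared its peak with AT3G02605, which lay 77 bp from BRG3 and had the nearest end in list 2, while BRG3, also bound, had it in list 1. At all 12 of these far members the nearest end at the list 2 midpoint was that of a lncRNA gene, their own at 8. In list 1 it was that of a lncRNA gene at 8, their own at 6, and that of a coding gene at 4.

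The 12 best-ranked near members lay beside bound coding genes in every case, and a coding gene had the nearest end to the list 2 midpoint at 9 of them and to the list 1 midpoint at 8. AT4G07395 ranked first, with scores of 857.61 and 1332.03. It lies between DREB1A (also called CBF3) and CBF1, activators of the cold response, but its highest peaks began 9 bp and 110 bp beyond the gene and were centred nearest to CBF1. AT5G00995 (641.39 and 849.64) lay 401 bp from CAT6, a cationic amino acid transporter gene, and its peaks began 487 bp and 706 bp away. AT2G45685 (550.61 and 976.62) overlapped TCP9, a class I TCP factor gene, by 1625 of its 1680 bp and was covered by both peaks. AT5G09425 (534.77 and 812.97) overlapped the auxin repressor gene IAA9 by 44 bp and held the list 2 midpoint. IAA9 had the nearest end there, 53 bp away.

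AT3G03345 (525.35 and 687.95) lay by AT3G16580 and RALF23, which encodes a signalling peptide, and its list 2 midpoint was nearest to RALF23. AT1G05767 (482.46 and 695.03) overlapped AT1G22800, but its list 1 peak covered only 25.7% of it and its list 2 peak lay 147 bp away. Both peaks were centred nearest to an end of AT1G22830. Beside jasmonate repressor genes, AT1G09307 (444.55 and 473.67) lay 148 bp from JAZ6 and AT1G05473 (367.86 and 382.65) lay 705 bp from JAZ1. Both were wholly inside their peaks, but only AT1G09307 had the nearest end in list 2. AT2G08305 (351.38 and 570.67) lay by the expansin gene EXPA6, whose products loosen cell walls, and 589 bp and 799 bp from its peaks. AT1G04597 (642.45 and 283.03) lay 565 bp from APK1A. AT1G09577 (309.39 and 441.63), 269 bp from CLV1, the receptor kinase gene that limits the shoot stem cell population, was the only one of the 12 with the nearest end in both lists.

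**Figure D4:**
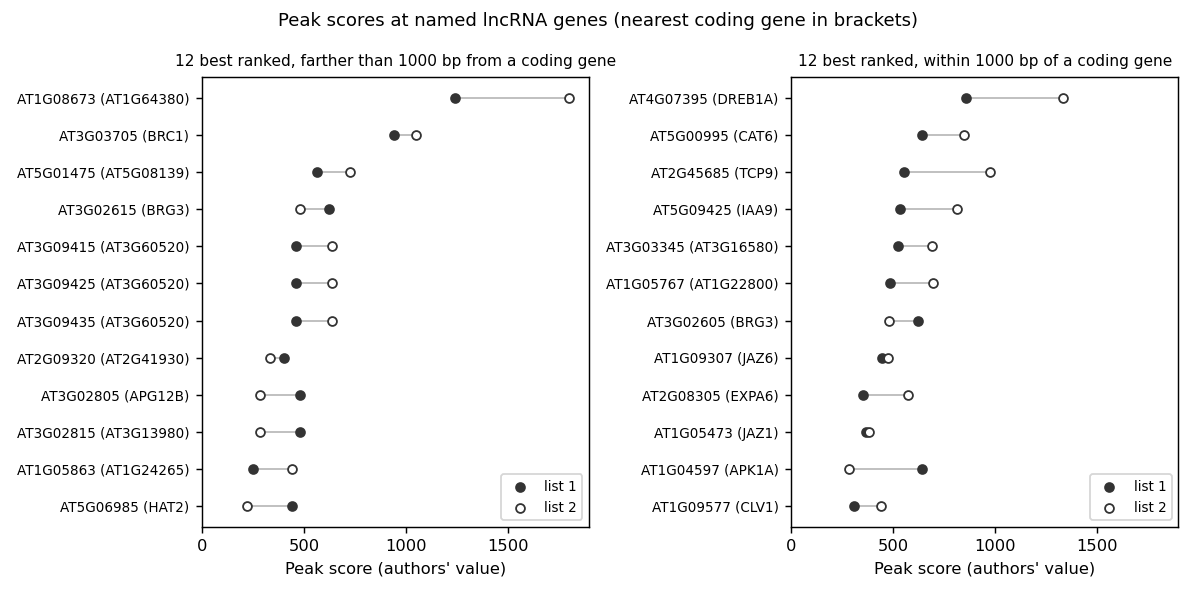
Peak scores (horizontal, authors' values) of the 12 best-ranked bound lncRNA genes farther than 1000 bp from a coding gene (left panel) and of the 12 within 1000 bp (right panel), with the nearest coding gene in brackets. Filled points are list 1 and open points list 2, and genes at the same peak have the same scores, as AT3G09415, AT3G09425 and AT3G09435 do at 458.62 and 636.28.

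Peaks that met lncRNA genes without meeting any coding gene window were few. At 32 members the highest list 2 peak reached no coding gene window, and at 12 neither peak did. Of those 12, at 10 different list 2 peaks, 11 were far members. The 12 are named as a complete group, formed after the values were seen. Of them 10 lay wholly inside both peaks and 9 had the nearest end in both lists. The choice keeps coding gene ends away from these peaks, so a lncRNA end was nearest largely by selection. AT3G03705 near BRC1 had the highest scores of the 12. AT1G08843 (238.17 and 277.36), with its peaks 699 bp and 917 bp away, lay 2289 bp from RGL1, a DELLA repressor gene of gibberellin signalling. AT1G07773 (138.81 and 114.55) lay 1639 bp from the auxin repressor gene IAA18.

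AT5G02985 and AT5G03005 shared a peak (170.05 and 88.62) at chromosome 5, 6399101 to 6401776 in list 1, and lay 7907 bp and 7870 bp from the nearest coding gene. They were the 2 bound genes beyond 5000 bp. AT4G09065 and AT4G09075 shared another (128.32 and 90.63) between CAT2, a catalase gene, and the aquaporin gene PIP3. Both coding genes were bound, through other peaks. The list 2 peak was also the highest of AT4G09085, which is not among the 12. AT1G08523 (116.51 and 98.86), AT3G04325 (104.72 and 120.12) near the meiotic recombinase gene DMC1, and AT5G04025 (91.86 and 64.26) near the dehydration-responsive gene RD22 each held their list 2 midpoint. So did AT4G08065 (81.04 and 53.73) near ADS1 and AT3G05305 (57.39 and 84.93) near MYB21, a regulator of stamen development. These last 3 genes had scores under 100 in both lists.

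A list of 20 names of plant non-coding RNA genes with published functions was also looked up, and 15 matched a locus. Only AT1G69572 was of type lncRNA in the table, and it was bound. It lies wholly inside AT1G69570, which was bound too, with scores of 259.87 and 413.79. The list 1 peak covered the whole lncRNA gene, but the list 2 peak lay 108 bp outside it and was centred nearest to an end of AT1G69570. The other matched genes were 10 of type ncRNA, 3 of type protein-coding and 1 of type misc_RNA. Of these, TAS3A (AT3G17185), a precursor of small RNAs against auxin response factors, had peaks in both lists. AT2G34655, of type protein-coding, had a peak in list 1 only. The remaining 12, TAS3B (AT5G49615) among them, had none. Of all genes of each type, 6.93% of lncRNA, 3.62% of ncRNA, 5.04% of protein-coding and 5.31% of misc_RNA genes were bound. The matched genes are too few to set against these shares.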

How the data were processed

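Sites were taken from 2 deposited peak lists, each from 1 SMXL6-HA library and its control. The build was TAIR10 and the tools were MACS 1.4.2, SAMtools and BWA 0.7.10-r789, per the submitters' processing notes. No source used here gives their parameters, the read depth or whether duplicate reads were removed. Each row gives an interval and a score, and the score was deposited by the authors without a stated scale. Intervals are printed counted from 1 on TAIR10. Gene ends, names and types came from a RefSeq table of the assembly TAIR10.1, without strand or sequence, and were used for membership, distances and lengths only.

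Peaks were assigned with Python 3.11.15 and pandas 2.3.3, and the assignment was checked on made-up intervals with known answers. Members were ranked by the mean of their ranks of score, using the highest peak at the gene in each list. The 12 best-ranked near and far members are named, with the non-coding RNA genes of the fixed list. Members and lists were chosen with earlier results of these data known. No test was run, because the peaks themselves chose the genes. The planned search for promoter motifs was not run, since no sequence was used. Alternatives varied the window, overlap, score, peak width, replicate, centromere and distance limits.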

Additional observations from a re-analysis of the deposited data

How the results depend on the processing

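Of 66 recomputed values, 48 stayed within the 95% counting interval of the reported value, or within 1.5 times a count. The count of 241 bound lncRNA genes was 113 with scores of at least 100, and 302 to 480 with 1 list alone. The share bound among far lncRNA genes (9.37%) was 6.93% with windows of 500 bp, 4.62% with scores of at least 100, 7.18% with list 1 peaks cut down to the list 2 median width, 11.8% to 16.7% with 1 list alone and 5.66% with the near limit at 2000 bp. Among near ones (6.17%) it was 5.19% with windows of 500 bp, 7.83% with 2000 bp, 2.82% with the score limit, 5.08% with trimmed peaks and 7.71% to 12.9% with 1 list alone. The share of members with the nearest gene end to the list 2 midpoint was 46.5% (112 of 241). It was 56.9% (111 of 195) with windows of 500 bp, 36.8% (111 of 302) with 2000 bp and 45.7% with list 2 alone. With list 1 alone it was 35.6%, but there it was taken at list 1 midpoints, where the 241 members had 34.9%. The share of near members with a bound coding neighbour (95.7%) was 91.1% with trimmed peaks. By construction, longer windows and single lists admit more genes, and shorter windows, a higher score limit and trimmed peaks admit fewer. A near limit of 2000 bp moves the lncRNA genes at 1001 to 2000 bp, 12.7% of them bound, to the near class. The number of members with the nearest end hardly changed with the window, so that share moved with the number of members. The cause of any other shift was not tested. Leaving out the list 2 peak scored under 50, chosen after seeing the data, left 240 members. No paired analysis was possible because the replicates entered only as peak lists already called against their controls. With depth unknown, an unbound lncRNA gene is one without a call, and weaker binding there could have been missed.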

Other observations

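The members given next were picked by hand for the coding gene beside them, after their values were seen. They were not counted against other members or unbound lncRNA genes, and nothing is read from them as a group. Near DELLA genes, which encode repressors of gibberellin signalling, AT1G05133 (216.44 and 71.72 in lists 1 and 2) lay 1715 bp from GAI, AT2G04015 (53.02 and 87.46) 1429 bp from RGA1 and AT1G08843 2289 bp from RGL1. Each had the nearest gene end to its list 2 midpoint, and AT2G04015 and AT1G08843 also in list 1, where GAI had the nearest end at the peak of AT1G05133. The list 1 peaks reached the windows of GAI and RGA1 but not of RGL1, and the 3 DELLA genes were not bound in both lists. Beside TOPLESS corepressor genes, AT1G05197 (206.58 and 264.99) lay 154 bp from TPL, AT3G03375 (116.69 and 160.51) 250 bp from TPR2, and AT5G04345 (170.94 and 380.5) overlapped TPR3 by 154 bp. All 3 lay wholly inside both peaks and held the list 2 midpoint, and their coding neighbours were bound too. TPL in list 1 and TPR3 in list 2 had the nearest end. Among light signalling genes, AT3G09185 (172.59 and 228.79) lay 419 bp from PIL6, also called PIF5, and had the nearest end in both lists. Near auxin repressor genes, AT1G04253 (69.76 and 67.87) lay 1080 bp from AXR3, also called IAA17, and had the nearest end in both lists, although its list 1 peak reached the AXR3 window, while AT3G03335 (295.58 and 154.17) lay 550 bp from IAA26, which was bound, had the nearest end in both lists and is listed under the symbol PAP1. At AT5G03755 (73.49 and 112.31), 1289 bp from the clock gene PRR5, which was bound too, the list 2 midpoint lay inside the lncRNA gene.

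Within the SMXL family, AT2G09115 overlapped SMXL8 by 156 bp, with scores of 116.5 and 20.72. The second is the lowest of list 2. AT2G08355 lay 1433 bp from SMXL7, and its peaks (149.56 and 149.75) were centred nearest to SMXL7.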
